A study of Mus musculus with 24 samples.

Results

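Loss of Ogg1 was set directly against loss of Mutyh in neuronal nuclei of the mouse hippocampus, using the 3 Ogg1-/- and the 3 Mutyh-/- libraries of NeuN+ nuclei, 6 of the 24 libraries of the series. The libraries were chosen by genotype and sorted fraction, not by their values. Earlier results of these data were known when the contrast was chosen. The mice were males on a C57BL/6N background, killed at 6 months of age, and were deficient in Ogg1 or Mutyh. WT mice and a double knockout obtained by crossing (Mutyh-/-xOgg1-/-, DKO here) gave 3 NeuN+ libraries each, and the same 4 genotypes gave 3 libraries each of NeuN- nuclei. NeuN is the neuronal nuclear protein encoded by Rbfox3, and the antibody sort separates neuronal nuclei from a remainder that is mainly glial. Nuclei of several animals were pooled, and whether a replicate was an animal, a pool or a share of a pool is unclear from the methods, so every p-value measures the spread between these libraries only. The sequencing lanes of NeuN+ differed from those of NeuN-, and lane and fraction cannot be told apart.

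Ogg1 and Mutyh are DNA glycosylases, the enzymes that open base excision repair. Ogg1 removes 8-oxoguanine, a frequent product of oxidative damage, where it is paired with cytosine. Mutyh removes the adenine that replication places opposite an 8-oxoguanine that was left unrepaired. Downstream enzymes then cut the backbone, fill the gap and ligate the strand. The direct comparison asks what differs between nuclei that lack the enzyme for the damaged base and nuclei that lack the enzyme for the mispaired adenine.

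Total counts of the 6 libraries ranged from 56563586 to 96192142. The sort held in both genotypes, since the summed level of 8 neuronal markers was 4910 to 5352 CPM (counts relative to the library size scaled with TMM factors) in Mutyh-/- and 4630 to 5015 CPM in Ogg1-/- NeuN+ libraries, against 633 to 702 CPM in the NeuN- libraries of both. The 5 oligodendrocyte markers summed to 108 to 126 CPM in Mutyh-/- and 109 to 128 CPM in Ogg1-/- NeuN+ libraries, and to 5510 to 7370 CPM in NeuN-. Mutyh-/- NeuN+ replicate 3 stood apart from its group, with a chi-square per degree of freedom of 19.65 and 21.18 over gene counts against the other 2 libraries, which differed from each other by 8.192. Leaving it out raised the number of differentially expressed genes below from 146 to 521, and list medians that move by over 1.5 times without it are given with the value without it.

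A differentially expressed gene (DEG) had an absolute log2 difference above 0.5 and a Benjamini-Hochberg adjusted p under 0.05 in the quasi-likelihood test of edgeR. Of 30132 genes tested in NeuN+, 146 were DEGs (0.485%), 76 higher (0.252%) and 70 lower (0.232%) in Ogg1-/- than in Mutyh-/-. Without the limit on the log2 difference, 197 genes passed (0.654%), and 3816 had an unadjusted p under 0.05. All 146 DEGs had 3 and 3 libraries that did not overlap, as did 17.4% of all genes tested. Of the 16828 protein-coding genes tested, 77 were DEGs (0.458%), against 0.475% of all genes with a position. The DEGs were not spread evenly along the genome. Of the 141 with a known position, 50 lay on chromosome 4, which carries Mutyh, 25 on chromosome 14 and 16 on chromosome 6, which carries Ogg1. Their shares of the genes tested on these chromosomes were 3.05%, 2.11% and 1.05%. When DEGs less than 1 Mb apart were joined, 102 of them fell into 21 intervals that held 266 tested genes. Leaving out Mutyh-/- replicate 3 gave 306 joined DEGs among 513 with a position, and 141 of the 146 DEGs were also called then. Reads of overlapping genes may have been shared in the counting, and 77 of the 146 overlapped another gene. The share of overlapping genes among all genes tested was not counted.

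The targeted genes were examined in every library. Ogg1 (chromosome 6, 113326972 to 113335068, GRCm38) was at 2.67, 2.99 and 2.65 CPM in Mutyh-/- and 3.34, 3.16 and 2.95 CPM in Ogg1-/- NeuN+ libraries. The ranges overlapped, and the log2 difference of 0.19 (SE 0.12) did not pass the test (adjusted p = 0.532). Mutyh (chromosome 4, 116807723 to 116819440) was at 10.6, 10.7 and 9.06 CPM in the libraries labelled Mutyh-/- and 1.29, 1.04 and 1.27 CPM in those labelled Ogg1-/-. The libraries labelled as the Mutyh knockout were thus the high ones, against the direction that the label would give, with a log2 difference of -3.08 (SE 0.14, adjusted p = 1.32e-08). WT was at 1.05, 1.18 and 1.18 CPM and the libraries labelled DKO at 7.74, 8.39 and 11.1 CPM, so that both groups labelled as lacking Mutyh were high. Counts per gene do not show which exons were read, and a transcript of a disrupted gene is still counted. Directions below are those of the libraries as labelled.

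The interval with the most DEGs, of 1196.4 kb on chromosome 4 from Cntfr to Fam205a1 (41657498 to 42853888), held 27 DEGs, and all 27 were higher in Ogg1-/-. It has many near-identical gene copies, among them those of Ccl21, a chemokine that draws CCR7-bearing lymphocytes and dendritic cells to lymphoid tissue. The stretch upstream of the chemokine copies is shown because it makes visible how alike they are there. Transcript sequences were not compared, so the stretch does not show how reads of the copies were assigned. All are on GRCm38.p6 as in RefSeq, 5′ to 3′ on the strand of the gene. For Ccl21d (plus strand), the 250 bases before its RefSeq start, chr4:41903363-41903612, read:

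Ccl21d: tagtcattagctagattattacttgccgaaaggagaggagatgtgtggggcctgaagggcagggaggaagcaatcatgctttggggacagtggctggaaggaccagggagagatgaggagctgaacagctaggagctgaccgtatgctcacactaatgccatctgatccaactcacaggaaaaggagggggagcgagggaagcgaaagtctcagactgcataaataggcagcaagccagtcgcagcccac

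A stretch of 53 bases within it was compared with the copies, with capitals marking a base that differs from Ccl21d. The stretches are chr4:41903478-41903530 (Ccl21d, plus), chr4:42114652-42114704 (Gm13304, plus), chr4:42611988-42612040 (Gm10591, plus) and chr4:42774073-42774125 (Ccl21a, minus).
Ccl21d: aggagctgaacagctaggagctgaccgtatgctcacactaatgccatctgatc
Gm13304: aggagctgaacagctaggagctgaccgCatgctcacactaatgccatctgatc
Gm10591: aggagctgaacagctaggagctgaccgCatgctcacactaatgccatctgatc
Ccl21a: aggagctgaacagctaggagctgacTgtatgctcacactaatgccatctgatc
Over the whole upstream region Gm13304 and Gm10591 each shared 249 of 250 bases with Ccl21d, and Ccl21a shared 248 of 249. Ccl21d, Gm13304 and Gm10591 were DEGs, whereas Ccl21a was not.

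Ccl21d was at 2.94, 3.46 and 3.84 CPM in Mutyh-/- and 15.1, 14.96 and 15.6 CPM in Ogg1-/-, a log2 difference of 2.15 (SE 0.12, adjusted p = 7.95e-08). WT at 1.34, 1.41 and 1.504 CPM and DKO at 2.03, 1.34 and 2.02 CPM were below both single knockouts. The order of the groups was therefore WT and DKO, then Mutyh-/-, then Ogg1-/-, with no overlap between the single knockouts. Ccl21b, another chemokine copy, was at 4.44, 5.08 and 5.94 CPM in Mutyh-/- and 20.04, 19.9 and 21.6 CPM in Ogg1-/- (log2 difference 1.99). Gm13304 (1.82) and Gm10591 (1.83) differed by similar amounts.

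The gene model Gm17167 took the most counts in the interval, at 395, 416 and 363 CPM in Mutyh-/- and 1207, 1314 and 1183 CPM in Ogg1-/- (log2 difference 1.66, SE 0.15, adjusted p = 1.07e-05). WT had 102, 91.6 and 110 CPM and DKO 110, 116 and 186 CPM. Both single knockouts stood above WT and DKO here, with Ogg1-/- the highest. Gm10600 showed the same order, with 21.9, 24.8 and 21.7 CPM in Mutyh-/-, 78.5, 88.3 and 88.0 CPM in Ogg1-/- and 2.08, 1.99 and 2.46 CPM in WT.

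The Fam205a copies formed a second kind of pattern in the same interval. Fam205a3 was at 29.9, 33.8 and 33.2 CPM in Mutyh-/- and 59.5, 62.7 and 60.1 CPM in Ogg1-/-, with WT at 26.4, 26.0 and 27.3 CPM. Mutyh-/- was thus close to WT, and the log2 difference between the knockouts was 0.91 (SE 0.06). Fam205a4 (0.92), Fam205a2 (0.73) and Fam205a1 (0.71) had smaller log2 differences than the chemokine copies. Cntfr, the receptor subunit that binds ciliary neurotrophic factor, stood at the edge of the interval with a log2 difference of 0.55 (adjusted p = 0.0335), and it was no longer called without Mutyh-/- replicate 3.

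Across the interval, 46 of 50 tested genes had a positive log2 difference, and the 27 DEGs ranged from 0.55 to 2.15. By mean log2 level, DKO lay nearer to Mutyh-/- than to Ogg1-/- in 27 of 27, as did WT. In NeuN- nuclei the difference had the same sign in 27 of 27 and passed the DEG call in 23. Of the 5 DEGs with no position in the annotation used, Gm10599, Gm50470, Gm50471 and BX666061.1 were also higher in Ogg1-/-. Gm10599 had a mean of 60.4 CPM in Mutyh-/- and 243 CPM in Ogg1-/-, against 5.21 CPM in WT and 11.6 CPM in DKO.

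The interval with the next most DEGs, of 454.0 kb on chromosome 14 (69241848 to 69695834), ran in the opposite direction. It held 18 DEGs among 22 tested genes, all 22 genes had a negative log2 difference, and WT and DKO lay nearer to Ogg1-/- in 18 of 18. Loxl2, a lysyl oxidase that crosslinks collagen, was at 126, 91.8 and 136 CPM in Mutyh-/- and 0.675, 0.587 and 0.867 CPM in Ogg1-/-, with a log2 difference of -7.37 (SE 1.17, adjusted p = 0.00512). WT had 0.594, 0.734 and 0.445 CPM, so the 3 Mutyh-/- libraries alone were high among the single knockouts and WT. DKO split, with 0.394 and 0.579 CPM in replicates 1 and 2 and 34.1 CPM in replicate 3.

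The same split ran through the neighbours. Slc25a37, the mitoferrin that carries iron into mitochondria, was at 60.1, 47.6 and 72.6 CPM in Mutyh-/- and 15.8, 15.9 and 17.1 CPM in Ogg1-/- (log2 difference -1.89, SE 0.21, adjusted p = 0.000139). DKO had 15.5, 15.3 and 30.7 CPM, the last again from replicate 3. Entpd4, a nucleotide phosphohydrolase of internal membranes, was at 109, 91.6 and 131 CPM in Mutyh-/- and 45.6, 45.5 and 46.2 CPM in Ogg1-/- (log2 difference -1.27, SE 0.11). Its copy Entpd4b had the same log2 difference of -1.27 and nearly the same levels, so reads may have been shared between them. Gm16867, which spans much of the interval, was at 243, 183 and 269 CPM in Mutyh-/- and 27.2, 26.7 and 27.4 CPM in Ogg1-/-. Gm38378 and Gm37513 had 0 counts in all Ogg1-/- and all WT libraries and 411 and 415 counts in Mutyh-/-. Against a floor of 3 counts over the Ogg1-/- group, they were at least 170-fold and at least 172-fold lower in Ogg1-/-.

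NeuN- nuclei gave the same picture in this interval, with 18 of 18 DEGs of the same sign and 15 called. Loxl2 was there at 211, 145 and 238 CPM in Mutyh-/-, 3.85, 5.95 and 7.17 CPM in Ogg1-/- and 4.42, 5.31 and 68.4 CPM in DKO. DKO replicate 3 was thus the high DKO library in both fractions. A fit of the 6 compared libraries alone, without DKO, gave 142 DEGs.

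**Figure D1:**
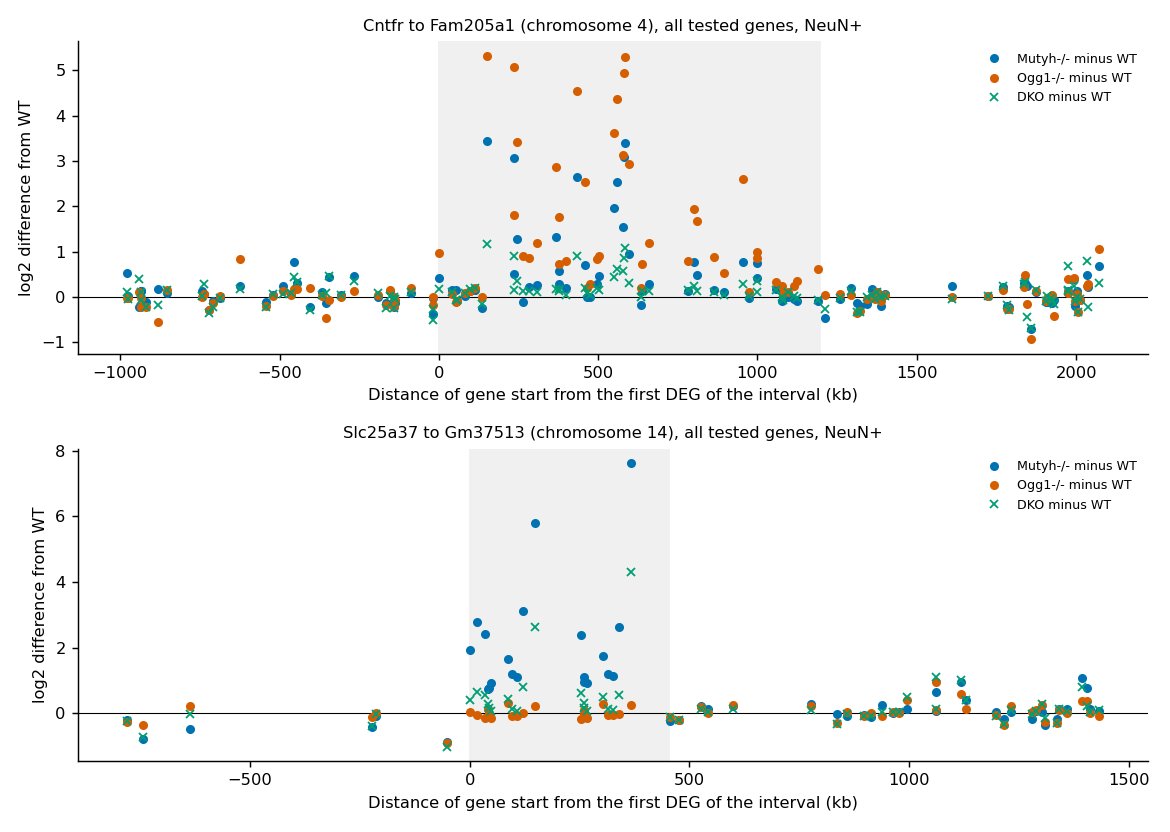
Log2 difference from WT in NeuN+ nuclei (vertical axis) of every tested gene in and near the 2 densest intervals, by distance in kb from the interval's first DEG (horizontal axis), for Mutyh-/- (blue circles), Ogg1-/- (orange circles) and DKO (green crosses). In the grey span of the chromosome 4 interval Ogg1-/- lies highest in the 27 DEGs, and in that of chromosome 14 Mutyh-/- lies highest. DKO also lies above 0 there, where in Loxl2 and Slc25a37 only DKO replicate 3 was raised. Genes with 0 counts in a whole group are left out.

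Farther along chromosome 14 the Ogg1-/- libraries were the ones that departed. Rcbtb2 was at 57.8, 58.4 and 56.5 CPM in Mutyh-/- and 29.2, 29.8 and 29.4 CPM in Ogg1-/-, with WT at 47.1, 46.4 and 49.4 CPM (log2 difference -0.97, SE 0.07, adjusted p = 6.81e-07). Its overlapping neighbour Rb1, the retinoblastoma protein that restrains entry into S phase, was at 105, 106 and 102 CPM in Mutyh-/- and 71.1, 72.4 and 74.0 CPM in Ogg1-/- (log2 difference -0.53). Esd, an esterase that acts in formaldehyde breakdown, was at 9.19, 9.73 and 7.37 CPM in Mutyh-/- and 4.33, 4.61 and 3.82 CPM in Ogg1-/- (log2 difference -1.04, SE 0.12). All 3 genes were lower in every Ogg1-/- library than in any Mutyh-/-, WT or DKO library. The gene model Gm49200 nearby went the other way, from 1.03, 0.901 and 0.768 CPM to 6.13, 6.70 and 6.78 CPM (log2 difference 2.87). Rcbtb2, Rb1 and Esd were also DEGs in NeuN- nuclei, with log2 differences of -0.58, -0.54 and -0.95.

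Around Mutyh, 20 of the 334 tested genes within 10 Mb were DEGs (5.99%), 12 higher and 8 lower in Ogg1-/-. In 20 of 20, DKO lay nearer to Mutyh-/- and WT nearer to Ogg1-/-. In NeuN- nuclei 17 of the 20 were tested, 15 had the same sign and 3 were called. Trabd2b, a membrane metalloprotease that cleaves Wnt proteins, was at 14.1, 10.8 and 14.8 CPM in Mutyh-/- and 46.8, 50.2 and 44.6 CPM in Ogg1-/- (log2 difference 1.83, SE 0.10, adjusted p = 3.64e-08). WT had 45.0, 41.8 and 44.4 CPM and DKO 14.04, 13.4 and 15.6 CPM, so both groups labelled as lacking Mutyh were low. In NeuN- the log2 difference of Trabd2b was 0.15 and did not pass the test (adjusted p = 0.923). Rab3b, a vesicle GTPase, was at 6.87, 6.17 and 7.78 CPM in Mutyh-/- and 13.5, 11.6 and 12.5 CPM in Ogg1-/- (0.84), and Orc1, the largest subunit of the replication origin complex, had a log2 difference of 0.53. Scp2, a sterol and lipid carrier, was lower in Ogg1-/- at 22.8, 22.4 and 23.1 CPM against 32.7, 31.8 and 32.7 CPM in Mutyh-/- (-0.51). Toe1, an RNA 3' exonuclease whose gene lies next to Mutyh, was also lower (-0.65). Skint1, of a family that shapes epidermal T cells, had 2 counts in the Mutyh-/- and 99 in the Ogg1-/- group, with 0.416, 0.210 and 0.414 CPM in WT.

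Closer than 2 Mb to Mutyh, a run from Hyi to Ebna1bp2 (118359990 to 118627776) held 5 DEGs among 7 tested genes, all higher in Ogg1-/-. Elovl1, an elongase of very long chain fatty acids, was at 2.27, 2.56 and 1.40 CPM in Mutyh-/- and 5.34, 5.30 and 4.50 CPM in Ogg1-/- (1.30, SE 0.19). Med8, a Mediator subunit, differed by 0.53 and Ebna1bp2, a ribosome biogenesis factor, by 0.52. A second run, from Gm37667 to 1700057H15Rik (124277777 to 124485959), held 5 tested genes, and all 5 were DEGs lower in Ogg1-/-. In it, 1700057H15Rik was at 29.2, 31.4 and 19.0 CPM in Mutyh-/-, 1.54, 1.81 and 1.70 CPM in Ogg1-/- and 1.49, 1.26 and 1.70 CPM in WT (log2 difference -3.96, SE 0.24, adjusted p = 1.39e-07). Its neighbour 4933435F18Rik had 179 counts in the Mutyh-/- and 2 in the Ogg1-/- group.

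Around Ogg1, 5 of the 224 tested genes within 10 Mb were DEGs (2.23%), and in 5 of 5 DKO lay nearer to Ogg1-/- and WT nearer to Mutyh-/-. Ret, the receptor tyrosine kinase for GDNF family ligands, was at 0.799, 1.03 and 1.05 CPM in Mutyh-/- and 2.25, 2.31 and 2.26 CPM in Ogg1-/- (log2 difference 1.24, SE 0.14, adjusted p = 0.000135). A2m, a broad protease inhibitor, was higher by 1.23. Rimklb, a ligase that joins glutamate to N-acetylaspartate or citrate, was at 22.0, 21 and 21.9 CPM in Mutyh-/- and 12.0, 10.5 and 11.6 CPM in Ogg1-/- (-0.93, SE 0.07), with DKO at 11.7, 13.1 and 13.3 CPM. Efcab12 (-0.64) and the zinc finger gene Zfp248 (-0.54) were lower as well. Every Ogg1-/- library lay outside the Mutyh-/- range for these 5 genes. In NeuN- nuclei 5 of 5 had the same sign and 1 was called.

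Beyond that window, an interval of 838.4 kb from Cracr2a to Gm15862 (chromosome 6, 127561338 to 128399740) held 9 DEGs among 30 tested genes, with DKO nearer to Ogg1-/- in 9 of 9. Tspan11, a tetraspanin, was at 0.604, 0.649 and 0.819 CPM in Mutyh-/- and 7.23, 8.10 and 7.48 CPM in Ogg1-/-, with the smallest p of all genes tested (log2 difference 3.44, SE 0.14, adjusted p = 4.8e-09). WT had 0.772, 0.854 and 0.829 CPM and DKO 7.41, 9.88 and 8.15 CPM, so the groups labelled as lacking Ogg1 were the high ones. The gene model Gm15870, which lies within Tspan11, differed by 3.68, and their reads cannot be told apart without strand. Cracr2a, a calcium sensor that regulates store-operated calcium entry, was higher (0.70), while 4921513H07Rik (-1.56) and Gm42811 (-2.10) were lower in Ogg1-/-.

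**Figure D2:**
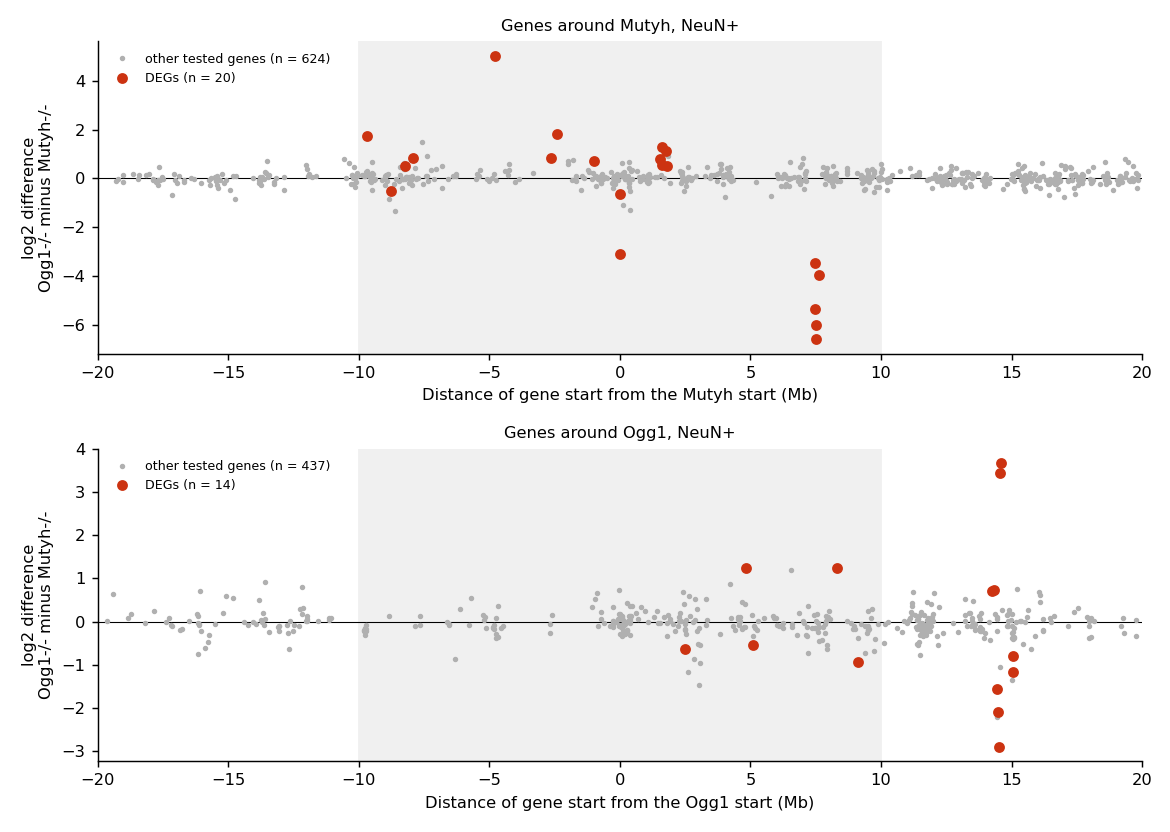
Log2 difference between Ogg1-/- and Mutyh-/- NeuN+ nuclei (vertical axis) of all tested genes by distance in Mb from Mutyh (upper panel) and Ogg1 (lower panel), with DEGs in red and the 10 Mb windows in grey. The windows hold 20 DEGs around Mutyh and 5 around Ogg1, and the run with Tspan11 lies at about 14.5 Mb from Ogg1.

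Outside all intervals and both windows, 37 DEGs had no other DEG within 1 Mb, 16 higher and 21 lower in Ogg1-/-, or 0.127% of the 29061 genes tested there. Higher in Ogg1-/- were Cdh23, the cadherin of hair cell tip links (0.62), Col13a1, a transmembrane collagen (0.93), Galnt10, which starts mucin-type O-glycans (0.51), and Tek, the angiopoietin receptor (0.63). Lower were Cdk6, a G1 kinase (-0.53), Npr1, the receptor for atrial natriuretic peptide (-0.89), and the gene model Gm5535. Gm5535 was at 19.9, 18.6 and 15.7 CPM in Mutyh-/- and 4.00, 3.05 and 2.69 CPM in Ogg1-/-, with WT between them at 11.3, 10.6 and 12.5 CPM (log2 difference -2.49, SE 0.14, adjusted p = 7.95e-08). The gene model Gm24305, with the most counts of all DEGs, was at 3394, 2868 and 3943 CPM in Mutyh-/- and 2078, 2354 and 2414 CPM in Ogg1-/- (-0.58). The Ndufs5 pseudogene Ndufs5-ps on chromosome 16 was at 3.80, 4.07 and 3.14 CPM in Mutyh-/- and 0.885, 0.513 and 0.450 CPM in Ogg1-/- (-2.61). Its parent Ndufs5, a complex I subunit whose gene lies 6.89 Mb from Mutyh, went the other way (0.46, adjusted p = 0.0371), so a part of the reads may have moved between the copies, which was not tested.

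Of the 21 intervals, 13 held DEGs of 1 direction only, and several small ones, such as Esd to Gm49200 and Ret to Zfp248, held both directions. On chromosome 8, Ccdc7a was at 23.0, 23.9 and 21.6 CPM in Mutyh-/- and 9.75, 9.12 and 10.1 CPM in Ogg1-/- (-1.24), and Gm3952, which overlaps it, at 15.9, 15.8 and 13.7 CPM and 2.77, 2.66 and 2.73 CPM (-2.47, SE 0.12, adjusted p = 2.4e-08). By group mean, WT and DKO lay between the knockouts for both. On chromosome 9, Stra6, the retinol uptake receptor (-0.97), and Ccdc33 (-0.99) were lower in Ogg1-/-. On chromosome 7, Kirrel2, an adhesion protein of the nephrin family (1.53), and Arhgap33os (2.48) were higher. On chromosome 3, the steroid dehydrogenase gene Hsd3b5 (0.79) and Hao2, a peroxisomal hydroxyacid oxidase (0.97), were higher.

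On chromosome 11, the gene model Gm12576 was at 15.4, 18.4 and 17.3 CPM in Mutyh-/- and 2.00, 2.34 and 1.78 CPM in Ogg1-/- (-3.06, SE 0.44), and DKO had 16.7, 17.1 and 2.92 CPM. DKO replicate 3 again differed from the other DKO libraries, here on the low side. Erdr1 and Gm47283, annotated at the ends of the X and Y chromosomes, were lower in Ogg1-/-. Erdr1 was at 100, 81.5 and 121 CPM in Mutyh-/- and 22.6, 32.9 and 5.73 CPM in Ogg1-/- (-2.31, SE 0.38, adjusted p = 0.00661). Relative to their mean, the Ogg1-/- libraries were spread more widely (20.4 ± 13.7 CPM against 101 ± 19.6 CPM, SD, n = 3 each), yet all lay below the Mutyh-/- libraries.

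**Figure D3:**
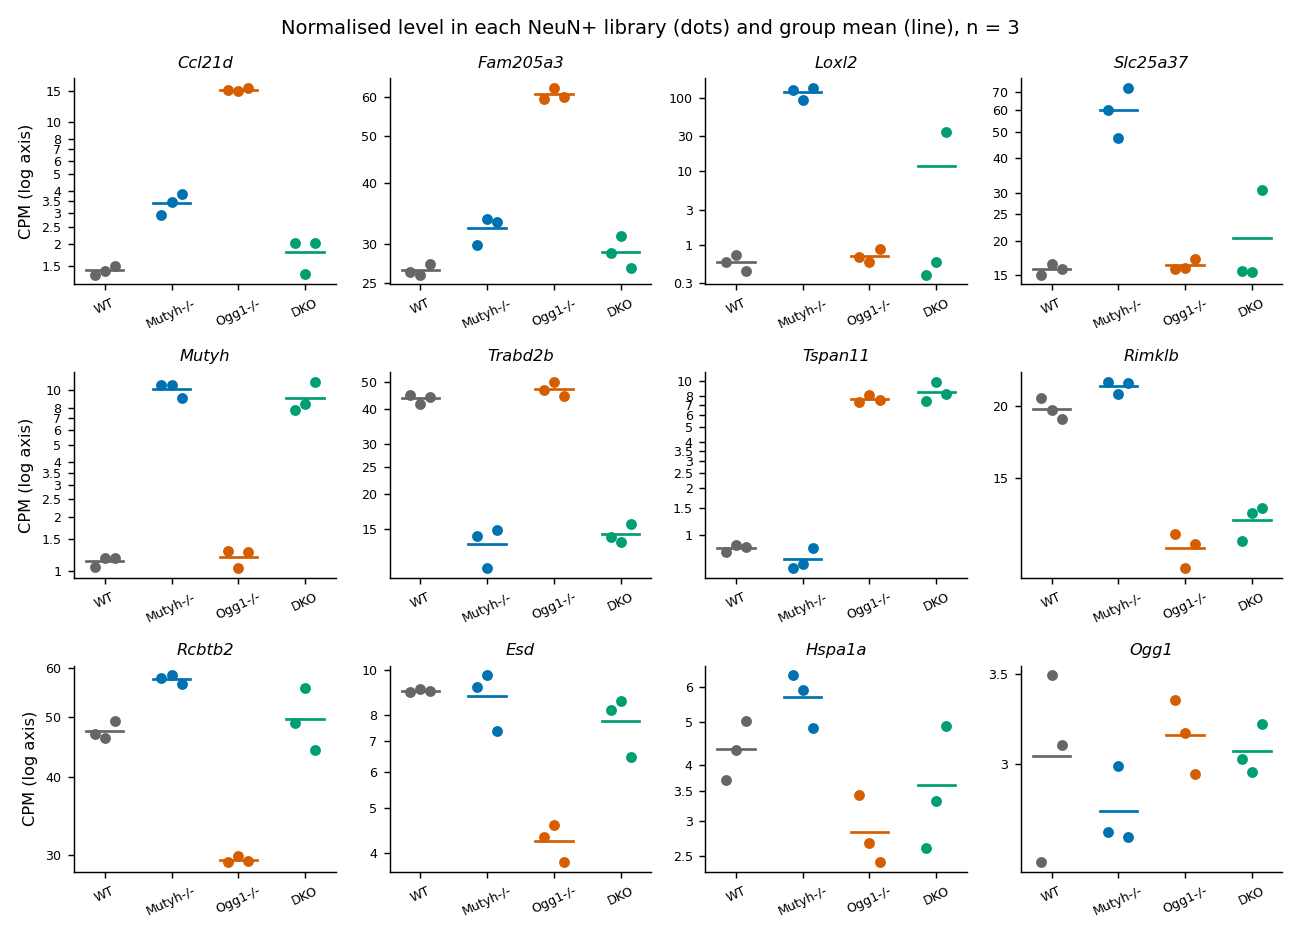
TMM-normalised CPM on a log axis of 12 genes in each of the 12 NeuN+ libraries (dots) with the group mean (line), for WT, Mutyh-/-, Ogg1-/- and DKO. The Ogg1-/- and Mutyh-/- dots are apart in 11 of the genes, whereas those of Ogg1 overlap (2.65 to 2.99 CPM in Mutyh-/- and 2.95 to 3.34 CPM in Ogg1-/-).

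Over all 146 DEGs, DKO lay nearer to Ogg1-/- in 58 and to Mutyh-/- in 88, and WT nearer to Ogg1-/- in 80 and to Mutyh-/- in 66. Set against WT separately, 173 genes were DEGs in Ogg1-/- (0.574%) and 129 in Mutyh-/- (0.428%). These comparisons share the WT libraries with each other and the knockout libraries with the direct comparison, so values are given side by side only. For Ccl21d the log2 difference from WT was 3.43 in Ogg1-/- and 1.27 in Mutyh-/-. Trabd2b had 0.11 and -1.72, Tspan11 3.21 and -0.23, Slc25a37 0.05 and 1.94, and Esd -1.08 and -0.05. In these examples the single knockout that lay farther from WT differed from gene to gene.

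The gene lists, which span repair, chromatin, metabolism, synapses and cell types, held 4 DEGs among 553 tested members (0.723%, against 0.485% of all genes tested), namely Mutyh, Hspa1a, Hspa1b and Entpd4. In the lists with 0 DEGs by edgeR, 79 of 525 tested members (15%) had an unadjusted p under 0.05, near the 12.7% of all genes tested. DESeq2 called 1 of these members, Epsti1. Without Mutyh-/- replicate 3, Dnmt3b, Ndufs5, Bhlhe40, Epsti1, Crb1 and 5 further heat shock genes were called as well. All 30132 tested genes had a median log2 difference of 0.00034. Apart from Mutyh, the 9 other glycosylases had a median of -0.031 (0.061 without Mutyh-/- replicate 3), with 3 positive and 0 DEGs, from Ung, which removes uracil (-0.31, and 0.061 without that library), to Neil3 (0.63, adjusted p = 0.628). Of 15 genes for the later steps of base excision repair, 8 were positive and 0 were DEGs, with a median of 0.0056 (-0.028 without Mutyh-/- replicate 3). Lig1, a DNA ligase, was the highest (0.33, adjusted p = 0.278) and Parp2, a sensor of strand breaks, the lowest (-0.16). The 4 genes that clear oxidized nucleotides had a median of -0.071 (-0.11 without that library), and Nudt1, which hydrolyses 8-oxo-dGTP, differed by 0.01. Of 11 components of Polycomb repressive complex 2, 1 was positive and 0 were DEGs (median -0.078), and Ezh2, its methyltransferase, differed by -0.15 (adjusted p = 0.327). Of 12 genes that write, erase or read DNA methylation, 7 were positive and 0 were DEGs, with a median of 0.031 (-0.010 without Mutyh-/- replicate 3). Dnmt3b, a de novo methyltransferase, was the highest (0.57, adjusted p = 0.154) and was called only when Mutyh-/- replicate 3 was left out (0.78).

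Heat shock proteins and chaperones, which fold proteins and rise under stress, differed more. All 18 tested members had a negative log2 difference, with a median of -0.37. An unadjusted p under 0.05 was reached by 16 of 18, against 12.7% of all genes tested. The libraries did not overlap in 5 of 18, against 17.4% of all genes. DEGs were 2 of them, both lower in Ogg1-/-. The summed level of the list overlapped, at 813 to 1142 CPM in Mutyh-/- and 640 to 878 CPM in Ogg1-/-. Hspa1a, the inducible Hsp70 chaperone, was at 6.36, 5.89 and 4.85 CPM in Mutyh-/- and 3.42, 2.67 and 2.42 CPM in Ogg1-/- (-1.01, SE 0.20, adjusted p = 0.0266). Hspa1b was at 6.38, 5.93 and 4.74 CPM and 3.39, 2.41 and 2.47 CPM (-1.05, adjusted p = 0.0185). The groups did not overlap, but the genes are near-identical copies in a single locus, so reads may have been shared. WT had 3.70, 4.33 and 5.04 CPM of Hspa1a, above every Ogg1-/- library and overlapping the Mutyh-/- range. The call of both was lost without Ogg1-/- replicate 2 or 3 and without Mutyh-/- replicate 1 or 2, at adjusted p of 0.0697 to 0.161. Without Mutyh-/- replicate 3, 7 members were DEGs, all lower in Ogg1-/-, namely Hspa1a, Hspa1b, Hspa5, Hspa8, Hsp90aa1, Hsp90ab1 and Hsp90b1. In NeuN- the list's median was -0.58 with 0 of 19 members positive. Hspa1a was there at 52.4, 56.7 and 11.7 CPM in Mutyh-/- and 9.58, 4.25 and 2.09 CPM in Ogg1-/-, and the difference of -2.91 did not pass the test (adjusted p = 0.181).

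Other lists of housekeeping transcripts had small negative medians, 0 DEGs and libraries that overlapped for most members. Cytosolic ribosomal protein genes had a median of -0.17 (-0.26 without Mutyh-/- replicate 3), with 77 of 79 negative and 10 of 79 not overlapping, against 17.4% of all genes. Their median log2 level, relative to each gene's mean over the 6 compared libraries, was -0.10 in Mutyh-/- replicate 3. This was below -0.0095 and -0.086 in Ogg1-/- replicates 1 and 2. Tubulins and actins had a median of -0.17 (15 of 16 negative, 0 not overlapping), glycolytic enzymes -0.10 (14 of 17 negative, 2 not overlapping) and nuclear-encoded respiratory complexes -0.056 (58 of 74 negative, 6 not overlapping). These medians were -0.30, -0.18 and -0.12 without Mutyh-/- replicate 3. Immediate early genes, which neuronal activity induces, had a median of -0.25, from Fos (-0.52, adjusted p = 0.588) to Npas4 (0.04). By level, genes in the lowest part of 3 equal parts had a median of 0.059 and those in the highest -0.018. In NeuN- the ribosomal protein median was -0.074.

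Synaptic and channel lists had medians near 0. NMDA receptor subunits had a median of 0.0017, GABA-A receptor subunits -0.021, vesicle and release genes -0.026, postsynaptic scaffold and kinase genes -0.062, sodium and calcium channels -0.025 and potassium channels 0.022, with 0 DEGs in each. Of the 27 vesicle and release genes, 8 (29.6%) had an unadjusted p under 0.05, as did 12.7% of all genes tested. Without Mutyh-/- replicate 3 the medians in the same order were 0.023, 0.024, -0.063, -0.11, -0.065 and -0.00010. The AMPA and kainate receptor list had a median of 0.024 (0.054 without that library). In it Grik1, a kainate receptor subunit, was at 144, 141 and 136 CPM in Mutyh-/- and 180, 172 and 174 CPM in Ogg1-/-. The groups did not overlap, and its log2 difference of 0.32 (SE 0.04) passed the test but not the size limit (adjusted p = 0.00131). Circadian genes had a median of -0.072, interferon response genes -0.018, cholesterol genes -0.018, antioxidant genes 0.0051 and nuclear long noncoding RNAs 0.021. Without Mutyh-/- replicate 3 they stood at -0.16, -0.087, 0.10, -0.039 and 0.041, so that the cholesterol and antioxidant medians changed sign, and 13 of 17 cholesterol genes were then positive. Bhlhe40, a circadian repressor, was at -0.37 (adjusted p = 0.184) and was a DEG without that library (-0.51, adjusted p = 0.00617). The 8 genes listed as differing between C57BL/6 substrains had a median of 0.062 (0.039 without it) and 1 DEG, Entpd4 of the chromosome 14 interval.

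Cell type markers were compared in the same way, since in bulk nuclei fewer cells of a type and less RNA per cell cannot be told apart. All 8 neuronal markers were negative (median -0.11), with 0 called. An unadjusted p under 0.05 was reached by 5 of 8, against 12.7% of all genes tested. Interneuron markers had a median of 0.17, with 9 of 10 positive and sums of 192 to 238 CPM in Mutyh-/- and 230 to 255 CPM in Ogg1-/-. This rests mostly on Mutyh-/- replicate 3, without which the median was 0.036 with 7 of 10 positive. Lhx6, the transcription factor of interneurons from the medial ganglionic eminence, was at 5.25, 4.88 and 4.26 CPM in Mutyh-/- and 7.15, 6.74 and 6.38 CPM in Ogg1-/- (0.50, adjusted p = 0.0104), just short of the size limit. All 7 dentate gyrus markers were negative (median -0.20) and 5 of 7 CA1 markers were (median -0.12), with 0 called, while the CA3 and CA2 list stood at 0.014 (-0.044 without Mutyh-/- replicate 3). Of the 8 CA3 and CA2 markers, 4 were positive and 4 negative, and 0 were DEGs. An unadjusted p under 0.05 was reached by 4 of them. The libraries did not overlap in 4 of 8, against 17.4% of all genes. Astrocyte markers had a median of 0.14 and sums of 33.4 to 36.1 CPM and 30.4 to 44.8 CPM, which overlapped. Microglial (-0.041), oligodendrocyte (0.0068), oligodendrocyte precursor (-0.058), endothelial (0.073) and choroid plexus (-0.25) lists held 0 DEGs. The microglial, oligodendrocyte and choroid plexus medians were -0.10, -0.094 and -0.10 without Mutyh-/- replicate 3. The markers Tmem119, Cldn5 and Folr1 were below the filter. Whether cell composition had a part in the differences of the neuronal subtype lists was not tested.

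**Figure D4:**
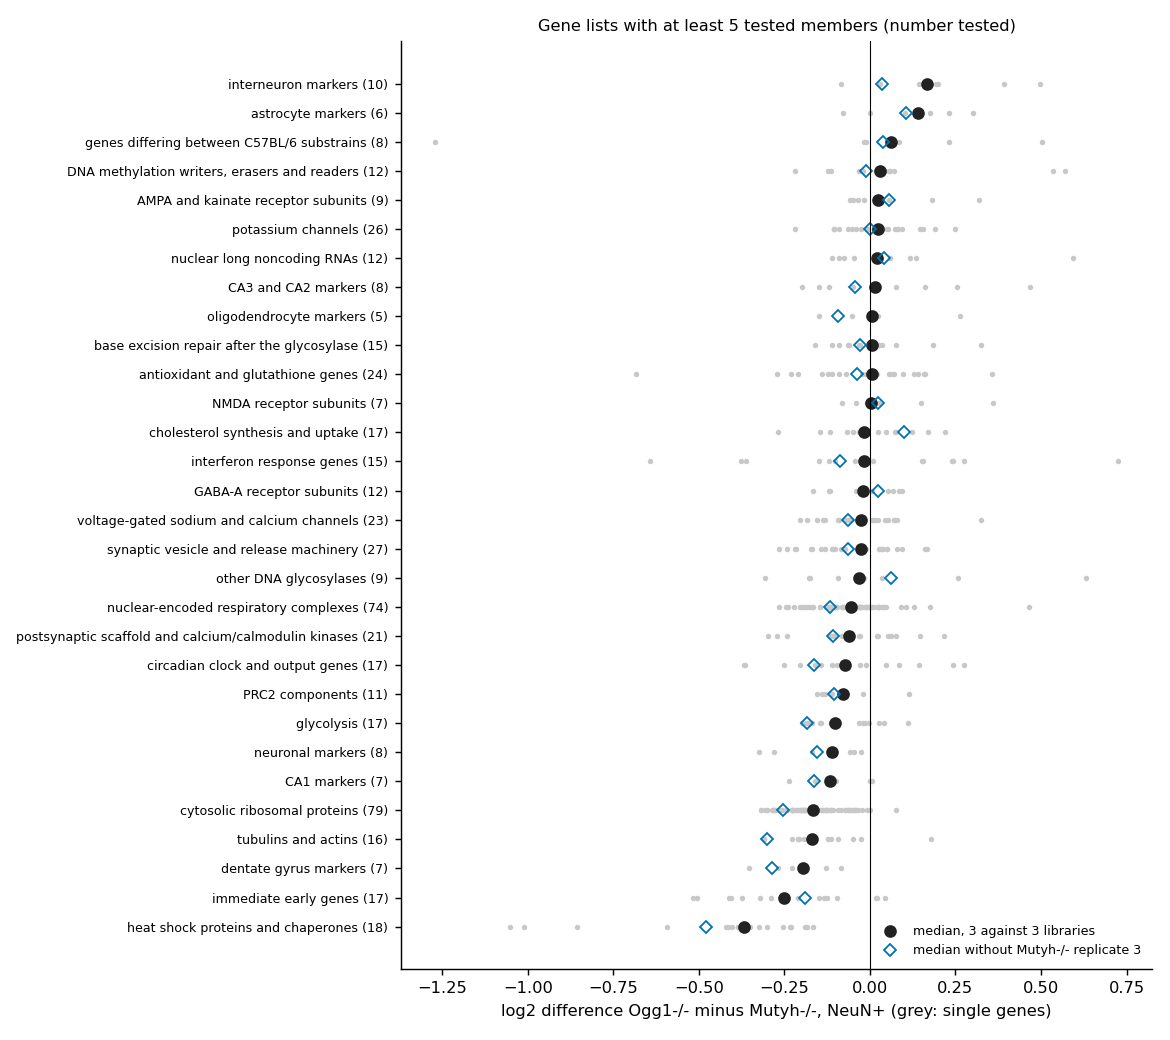
Median log2 difference between Ogg1-/- and Mutyh-/- NeuN+ nuclei (horizontal axis) for each gene list with at least 5 tested members (vertical axis, number tested in brackets), with all 6 libraries (filled) and without Mutyh-/- replicate 3 (open), and single genes in grey. The heat shock list lies farthest from 0, at -0.37 with all libraries and -0.48 without that replicate, while the order of the lists behind it changes between the filled and open symbols.

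The same contrast in NeuN- nuclei gave 166 DEGs of 31863 genes tested (0.521%). Of the 146 NeuN+ DEGs, 140 were tested there, 125 had the same sign and 60 were called, all 60 with the same sign. Among DEGs with another DEG within 1 Mb, 94 of the 98 tested had the same sign and 53 were called. Among the 37 scattered ones, 25 of 36 had the same sign and 5 were called. Leaving out Mutyh-/- NeuN+ replicate 3 gave 489 tested DEGs, of which 412 had the same sign and 64 were called. The share of same-sign genes among all genes tested was not counted. Both fractions were collected in the sort, so their libraries may come from the same animals. After removal of group means, libraries of the same genotype and number correlated between fractions at a mean of 0.111. For other numbers within a genotype the mean was -0.0555. The agreement can therefore not be read as a repeat in other animals.

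The difference between the fractions was tested itself in a fit of all 24 libraries, and 27 of 33523 genes passed (0.0805%), 12 of them DEGs of NeuN+. That fit treated the 24 libraries as independent. Tspan11, which differed by 3.44 in NeuN+, was at 5.10, 5.88 and 11.9 CPM in Mutyh-/- and 10.9, 8.47 and 8.82 CPM in Ogg1-/- NeuN- libraries, where the groups overlapped (0.30). Gm5535 was at 77.0, 66.4 and 91.4 CPM and 53.6, 53.3 and 65.8 CPM there, a difference of -0.44 against -2.49 in NeuN+. Mutyh differed by -1.58 in NeuN- against -3.08, with 10.2, 10.5 and 10.1 CPM in libraries labelled Mutyh-/- and 3.56, 3.51 and 3.19 CPM in those labelled Ogg1-/-. For these 3 genes the level in NeuN- was above that in NeuN+ in the lower group. Epsti1, an interferon-induced gene that was no DEG of NeuN+ (0.73, adjusted p = 0.0713), went the other way in NeuN- (-0.81, adjusted p = 0.00113).

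**Figure D5:**
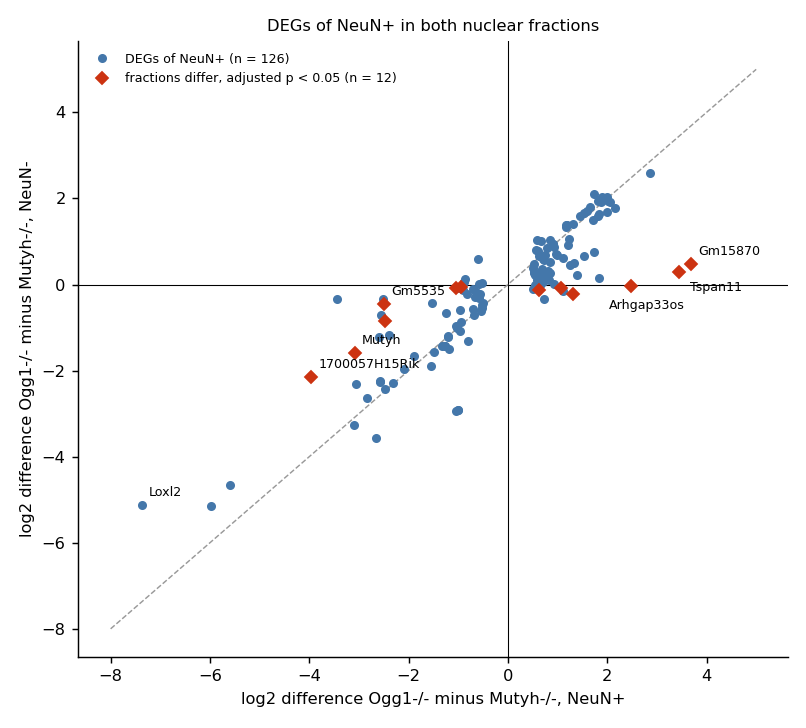
Log2 difference between Ogg1-/- and Mutyh-/- in NeuN+ (horizontal axis) and NeuN- nuclei (vertical axis) for 138 DEGs of NeuN+, leaving out 2 with 0 counts in a whole group, with the line of equal differences dashed. Most dots lie near that line, and the 12 red diamonds are genes whose differences themselves differed between fractions.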

How the data were processed

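Nuclear RNA of sorted NeuN+ and NeuN- nuclei was sequenced with a stranded total RNA kit. The authors aligned read pairs with HISAT2 2.1.0 to GRCm38 and deposited raw counts per gene from featureCounts (SAMtools 1.10 and edgeR 3.42.4 are also named). How strand, overlapping genes and reads with several matches were handled is not given in the sources used here. Values are counts for 55254 genes by symbol. The deposited counts were analysed with R 4.3.3 and edgeR 4.0.16. Low counts were removed with filterByExpr, TMM factors were applied, the 4 genotypes of a fraction were fitted together, and Ogg1-/- was compared with Mutyh-/- by the quasi-likelihood test with Benjamini-Hochberg adjustment. SE is the log2 difference divided by the root of F. Biological variation between replicates (BCV) came to 0.0823 for NeuN+ and 0.124 for NeuN-. Positions were known for 98.6% of tested genes.

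The contrast and the gene lists were chosen with earlier results of these data known. Named by rule were Ogg1, Mutyh, the 10 DEGs of smallest p in each direction with groups that do not overlap, the 10 of each direction without a clone or model name, list members that were DEGs, and list members of extreme difference. Other genes of an interval were chosen after their values were seen. In simulated counts for the NeuN+ contrast (29848 genes), 58% of 100 genes changed by 0.7 on the log2 scale and 91% of 100 changed by 1.5 were called, with 10 false calls. Alternatives were DESeq2 1.42.0, a likelihood ratio test, other filters, size factors and thresholds, fits of fewer libraries and a replicate block. Mitochondrially encoded genes were not analysed here, and a withheld item is not reported here.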

Additional observations from a re-analysis of the deposited data

Results flagged for a closer look

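For 12 DEGs of NeuN+, the Ogg1-/- minus Mutyh-/- log2 difference itself differed between NeuN+ and NeuN- in the quasi-likelihood test of edgeR, with p adjusted over 33523 genes. The values are the NeuN+ minus the NeuN- difference, fraction and sequencing lane cannot be told apart, and no cause was tested. Gene models and noncoding loci in this group were Gm5535 at -2.02 (adjusted p = 0.00012), Gm3952 at -1.60 (0.000126), Gm15870 at 3.24 (0.000152), Arhgap33os at 2.53 (0.00106), 9130204K15Rik at -0.957 (0.00325) and 1700057H15Rik at -1.79 (0.0224). Of these gene models, Gm3952 is annotated as protein-coding. The other protein-coding genes were Tspan11 at 3.16 (0.000126), Mutyh at -1.48 (0.000461), Rimklb at -0.865 (0.00115), Elovl1 at 1.55 (0.00293), Wdfy4 at 1.15 (0.0141) and Cdh23 at 0.773 (0.0464).

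In 10 of the 12 the NeuN- difference was smaller than 1 on the log2 scale, from -0.86 in Gm3952 to 0.47 in Gm15870. The exceptions, Mutyh and 1700057H15Rik, differed by -1.58 and -2.16 in NeuN-. Their sign was the same in both fractions, as was that of Gm5535, Tspan11, Gm3952, Gm15870, Rimklb and 9130204K15Rik. Gm3952 was also a DEG in NeuN- (adjusted p = 0.00592). The sign was opposite in Arhgap33os, Elovl1, Wdfy4 and Cdh23.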

How the results depend on the processing

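The 146 DEGs of NeuN+ (76 higher, 70 lower) became 360 (197 higher, 163 lower) with no filter beyond a total count above 0, 318 (183, 135) with a likelihood ratio test, 223 by DESeq2 (127 higher) and 84 (39, 45) at an absolute log2 difference above 1. Leaving out each replicate gave 96 to 521 in all, 48 to 322 higher and 47 to 199 lower, where 521 is without Mutyh-/- replicate 3. Other settings kept these counts within 1.5 times. The same-number correlations in NeuN+ were 0.0643, 0.101 and 0.153, against -0.108 to 0.0196 for other numbers. Each Ogg1-/- library thus correlated best with its own number, but values this small do not settle whether the numbers pair the libraries. The main fit used no pairing. The replicate block gave 143 DEGs. In NeuN-, 166 DEGs became 317 (likelihood ratio), 303 (DESeq2) and 66 to 342 without a replicate. The 27 genes differing between fractions became 43 with no filter and 54 with the genotype and replicate block. The positions and the other fraction were also examined without Mutyh-/- replicate 3, an alternative added after seeing the data. Joined DEGs then went from 102 of 141 with a position to 306 of 513. NeuN+ DEGs of the same sign in NeuN- went from 125 of 140 tested to 412 of 489. Those called in NeuN- went from 60 to 64.

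List medians that moved by more than the spread between libraries, given as the range without a replicate, were other DNA glycosylases -0.10 to 0.061, DNA methylation -0.025 to 0.059, postsynaptic genes -0.11 to -0.029, circadian -0.16 to -0.032, noncoding RNAs 0.009306 to 0.061, interferon -0.087 to 0.013, antioxidant -0.039 to 0.031, substrain genes 0.020 to 0.065, CA1 -0.16 to -0.075, astrocyte -0.11 to 0.22 and choroid plexus -0.33 to -0.089. A mean CPM of at least 1 gave 0.031 for substrain genes, 0.064 for microglia and 0.14 for choroid plexus, and no filter gave 0.046 for microglia. The cholesterol (-0.10 to 0.10) and interneuron (0.036 to 0.27) medians had wide ranges too. Of 102 named genes, 9 changed sign in some setting, among them Ung (-0.51 to 0.061), Npas4 and Nudt1, and 0 of these 9 were DEGs. A call was lost in 9 fits, 4 each of Hspa1a and Hspa1b and 1 of Scp2 (-0.50 without Ogg1-/- replicate 2). Depth of at least 56563586 counts limits mainly genes under 1 CPM, such as Skint1 and Gm15870.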
